A study of Mus musculus with 2 samples.

Results

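The LGR receptors Lgr4, Lgr5 and Lgr6, the R-spondins Rspo1, Rspo2, Rspo3 and Rspo4, and the membrane ubiquitin ligases Znrf3 and Rnf43 were examined in single-cell RNA-seq of healing mouse skin. These 9 genes were the rows with those symbols among the 27998 genes of each count matrix, and all 9 were found in both. The family was selected on values of these same libraries, in which Lgr5 had stood out in fibroblasts, so its levels and its ratio between the libraries are given as a description. There were 2 libraries of male C57BL/6J mice with wild-type genotype aged 6 to 8 weeks. In both, a circular wound of 1.8 cm was made on the back, and the centre of the healed wound was taken with a 5 mm punch 2 days after the scab had detached. Mice of the library named TLR9agonist_LW received 4 µg of the CpG oligonucleotide ODN2395, an agonist of Toll-like receptor 9, on days 0, 3 and 6 after wounding, and mice of the control library WT_LW received PBS on those days. The comparison asks what activation of this receptor early after wounding changes in the tissue from which hair follicles may regrow. Each library pooled cells of several mice, the donors are not marked in the counts, and the epidermis and dermis were separated with enzyme and recombined after dissociation. With 1 library per group no test between the groups was possible. All intervals are 95% intervals that cover counting error only. They treat the UMIs of a class as independent, although UMIs of a gene can cluster in few cells. A gap between intervals thus describes the summed counts of the 2 libraries. It can rest on a few cells, and it does not say that the treatment changed a gene.

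R-spondins are secreted proteins that amplify Wnt signalling. ZNRF3 and RNF43 mark Frizzled, the Wnt receptor, for removal from the cell surface, and an R-spondin that binds an LGR receptor together with one of these ligases clears the ligase, so that Frizzled stays and the cell answers Wnt more strongly. In skin, Lgr5 is known as a marker of stem cells of the lower hair follicle, Lgr6 of stem cells of the upper follicle and epidermis, and Lgr4 as the most broadly used receptor of the family. R-spondins of the dermal papilla are known to act on the growing follicle, and both ligases are themselves Wnt target genes that feed back on the pathway.

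WT_LW held 12800 deposited cells with 99374045 UMIs (unique molecular identifiers, each counting 1 captured transcript), and TLR9agonist_LW held 13751 cells with 132339022 UMIs. After a filter on UMIs, genes and mitochondrial share, 11443 and 13206 cells remained, and 47 barcodes occurred in both libraries. Cells were placed in 10 classes by marker genes, fibroblasts being cells with at least 20 UMIs of Col1a1 and Col1a2 and no other gate passed. Fibroblasts made up 1084 cells (9.47%) of WT_LW and 2496 cells (18.9%) of TLR9agonist_LW, with median depths of 12757 and 12065.5 UMIs per cell. Keratinocytes numbered 521 and 1168, and their median depth was 14084 UMIs in WT_LW and 22889 UMIs in TLR9agonist_LW. Cells that passed more than 1 gate or carried much collagen were set aside (8.85% and 9.75% of cells), and 15.1% and 12.01% passed no gate. T cells of WT_LW held a median of 4 collagen UMIs and those of TLR9agonist_LW a median of 8. The part in these counts of free RNA from fibroblasts, or of droplets that also held a fibroblast, was not tested.

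On GRCm38 all 9 genes are protein-coding genes, and counts of reads near the transcript's 3′ end stand for each whole gene. Lgr4 (ENSMUSG00000050199) lies on chromosome 2 (109917647 to 110014257, plus strand), Lgr5 (ENSMUSG00000020140) on chromosome 10 (115450311 to 115587780, minus strand) and Lgr6 (ENSMUSG00000042793) on chromosome 1 (134983301 to 135105276, minus strand). Rspo1 (ENSMUSG00000028871) lies on chromosome 4 (124986430 to 125009099, plus strand), Rspo2 (ENSMUSG00000051920) on chromosome 15 (43020794 to 43170826, minus strand), Rspo3 (ENSMUSG00000019880) on chromosome 10 (29452416 to 29535867, minus strand) and Rspo4 (ENSMUSG00000032852) on chromosome 2 (151842927 to 151874668, plus strand). Znrf3 (ENSMUSG00000041961) lies on chromosome 11 (5276324 to 5444847, minus strand) and Rnf43 (ENSMUSG00000034177) on the same chromosome (87662722 to 87735539, plus strand).

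The members were divided among the cell classes of the wound. Levels (CPM) were the UMIs of a gene among each 1000000 UMIs of its class. They were compared for 1 gene across classes and libraries and not between genes, because a UMI count depends on how well each transcript is captured. Lgr5, Rspo1 and Rspo4 had their highest level in fibroblasts in both libraries, and their interval there lay apart from the interval of the class with the next highest level, except for Rspo4 in TLR9agonist_LW, where 2 UMIs in neutrophils gave that class a wide interval. Rspo3 was highest in lymphatic endothelial cells and next in fibroblasts. Lgr4 was highest in Schwann cells, Lgr6 in keratinocytes and Rnf43 in T cells, while Znrf3 was highest in keratinocytes, with intervals that overlapped those of endothelial cells. The Lgr6 intervals of keratinocytes and the class next in order also overlapped. The plot of member levels shows these patterns class by class.

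**Figure D1:**
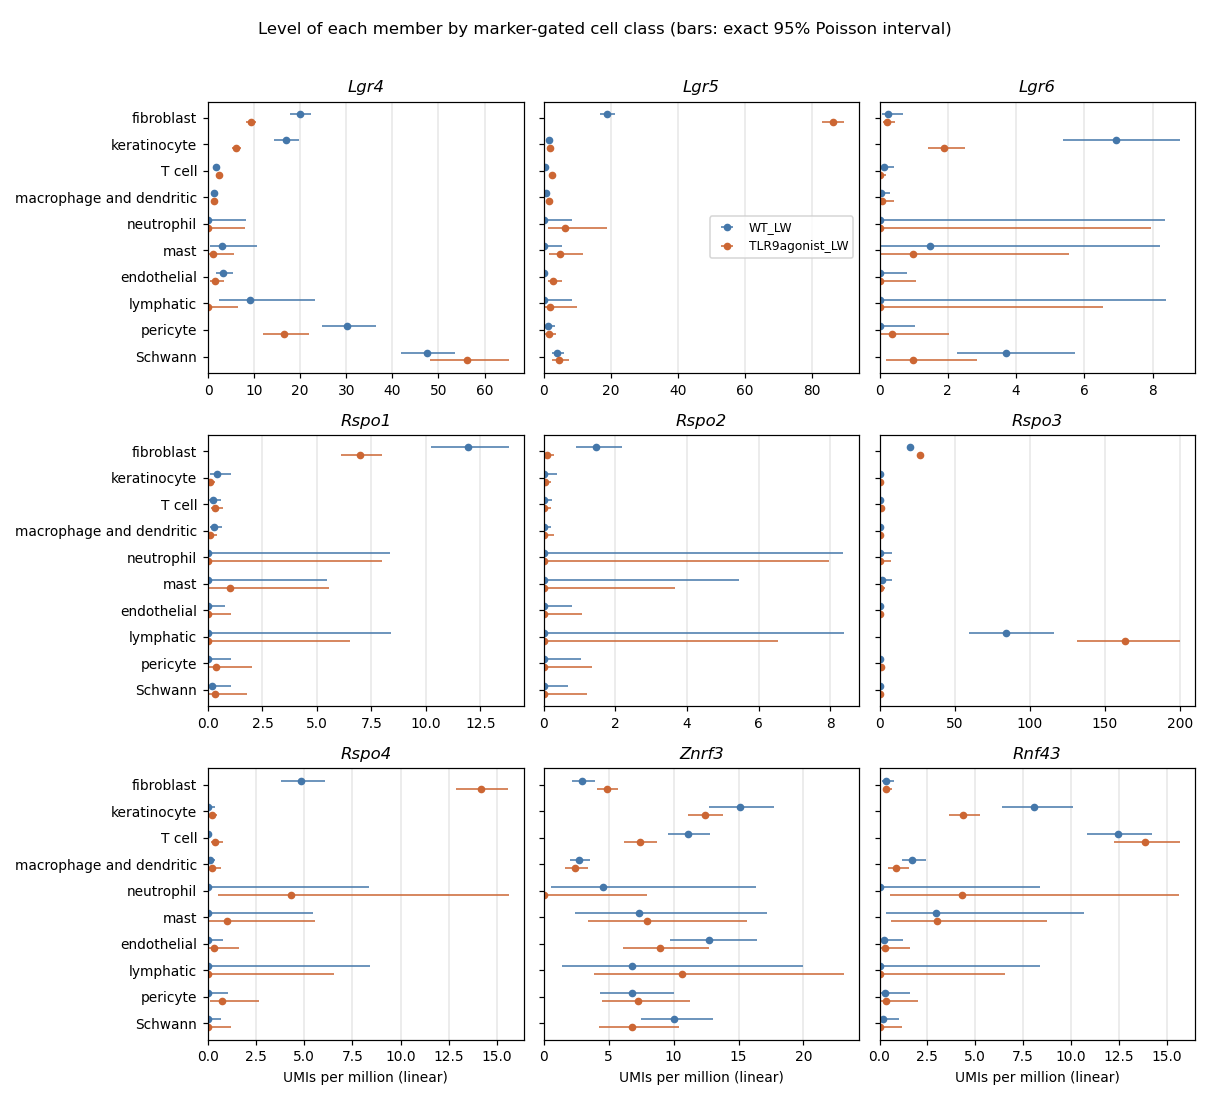
Level of each of the 9 members (CPM, linear axes that differ between panels) in 10 marker-gated cell classes of WT_LW (blue) and TLR9agonist_LW (orange), with exact Poisson 95% intervals. Lgr5 in fibroblasts reads 18.98 against 86.3, Rspo3 in lymphatic cells 84.1 against 163, and the wide bars of neutrophil, mast and lymphatic cells come from few counts.

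Lgr5 was the member that differed most between the fibroblasts of the 2 libraries among those with at least 50 UMIs. WT_LW fibroblasts held 288 Lgr5 UMIs, a level of 18.98 CPM (16.8 to 21.3), and TLR9agonist_LW fibroblasts held 2693 UMIs, a level of 86.3 CPM (83.1 to 89.6). The level was thus 4.55-fold higher in TLR9agonist_LW, a log2 ratio of 2.19 (2.01 to 2.37). Lgr5 ranked 88th among 12525 genes ordered by this ratio, and 52nd among the 9961 genes with at least 200 UMIs. The median gene of the fibroblasts, among those with at least 200 UMIs, had a log2 ratio of -0.27, and relative to it Lgr5 stood at 2.46. In WT_LW 67.1% of all Lgr5 UMIs lay in fibroblasts, and in TLR9agonist_LW 74.7%. Most Lgr5 UMIs of the captured cells thus lay in this class and not in keratinocytes. These shares also depend on how many cells of each class were captured.

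A larger share of fibroblasts held Lgr5 in TLR9agonist_LW. In WT_LW 89 of 1084 fibroblasts (8.21%, Clopper-Pearson interval 6.65 to 10.0%) had at least 1 Lgr5 UMI, and in TLR9agonist_LW 782 of 2496 (31.3%, 29.5 to 33.2%). The median among the cells that held it was 2 UMIs in each library, and the highest cell had 26 UMIs in WT_LW and 31 in TLR9agonist_LW. Cells with 10 or more Lgr5 UMIs numbered 5 (0.461% of fibroblasts) and 47 (1.88%), and cells with 5 to 9 numbered 13 (1.20%) and 140 (5.61%). The share was higher in TLR9agonist_LW in each of the 4 ranges of UMIs shown in the plot of Lgr5 UMIs per fibroblast. When fibroblasts were thinned to 5000 UMIs, so that depth was equal, 373 shallower cells of WT_LW and 441 of TLR9agonist_LW were left out. Of those kept, 42 of 711 cells (5.91%) of WT_LW and 452 of 2055 cells (22.0%) of TLR9agonist_LW held Lgr5. By the collagen minimum alone, with cells of other gates left in, the shares were 5.56% (139 of 2498) and 24.0% (1029 of 4284).

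**Figure D2:**
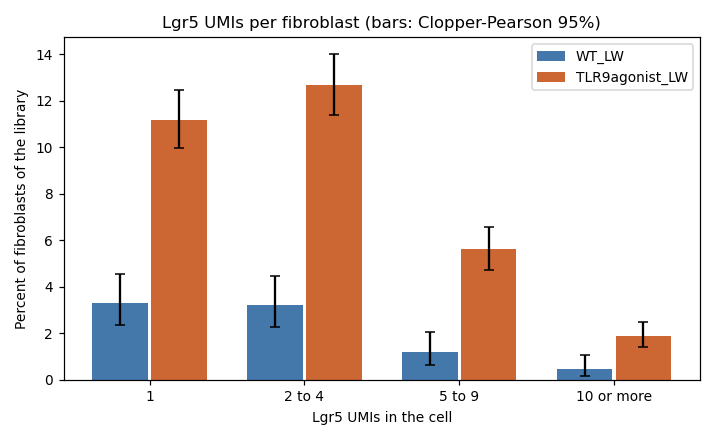
Percent of the fibroblasts of WT_LW (blue, 1084 cells) and TLR9agonist_LW (orange, 2496 cells) that held 1, 2 to 4, 5 to 9, or 10 or more Lgr5 UMIs, with Clopper-Pearson 95% intervals. The bar of TLR9agonist_LW is the higher one in all 4 ranges, for example 12.7% against 3.23% at 2 to 4 UMIs.

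Lgr5 was also counted in T cells, a class that should lack it. Among T cells 0.155% held an Lgr5 UMI in WT_LW and 1.13% in TLR9agonist_LW, at median depths of 4344 and 4632 UMIs. After thinning to 5000 UMIs, these shares were 0.271% (3 of 1108) and 1.01% (14 of 1383), against 5.91% and 22.0% in fibroblasts. The Lgr5 level of T cells was 1.54% of the fibroblast level in WT_LW (0.501 to 3.60%) and 2.71% in TLR9agonist_LW (1.96 to 3.65%). Collagen gave 2.06% and 2.99% by the same division, and the Lgr5 interval of each library holds the collagen value of the same library. The T cell gate left out cells with 50 or more collagen UMIs, which caps the collagen value. The source of the Lgr5 UMIs in T cells (2.34 CPM in TLR9agonist_LW against 0.293 CPM in WT_LW) was not tested. In keratinocytes Lgr5 was at 8.72% (4.99 to 14.2%) of the fibroblast level in WT_LW and 2.03% (1.49 to 2.70%) in TLR9agonist_LW, and collagen at 1.07% and 1.02%. Keratinocyte markers in fibroblasts summed to 401 CPM in WT_LW against 836 CPM in TLR9agonist_LW, and the part of free RNA or of remaining doublets in the ratio of Lgr5 was not tested. At the collagen limit of the gate, 1 of 229 ungated cells with 10 to 19 collagen UMIs held Lgr5 in WT_LW and 3 of 513 in TLR9agonist_LW, and among fibroblasts with 20 to 29 collagen UMIs the counts were 1 of 94 and 1 of 100. All these cells were shallow, with median depths of 1717 and 1489 UMIs in the first range and 1795.5 and 1622.5 UMIs in the second.

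Lgr5 was also followed in fibroblasts split by position markers. Cells with more UMIs of Crabp1, Prss35 and Grem1 than of Clec3b, Angptl1 and Cilp were called upper (488 and 1606 cells), and cells with fewer were called deep (433 and 725 cells). Clec3b and Angptl1 were themselves lower in TLR9agonist_LW, with log2 ratios of -1.71 and -1.05, and Crabp1 was higher with 0.58. The libraries thus differ in which cells count as upper or deep, the sizes of the subsets are not compared, and ratios within them compare cells chosen by these markers. In WT_LW, Lgr5 was at 26.7 CPM (22.9 to 30.8) in upper and 13.6 CPM (11.2 to 16.5) in deep fibroblasts. In TLR9agonist_LW it was at 87.3 CPM (83.2 to 91.6) in upper and 85.9 CPM (80.6 to 91.4) in deep fibroblasts. The upper level of WT_LW was thus above its deep level, whereas the levels of TLR9agonist_LW had overlapping intervals, and the log2 ratio between the libraries was 1.71 (1.49 to 1.94) in upper and 2.65 (2.36 to 2.96) in deep cells.

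In the other classes Lgr5 stayed low. Schwann cells had 3.89 and 4.55 CPM (21 and 14 UMIs), keratinocytes 1.66 and 1.75 CPM (16 and 47 UMIs) and pericytes 1.41 and 1.46 CPM (5 and 4 UMIs). Neutrophils and mast cells held 0 UMIs in WT_LW and 3 and 5 UMIs in TLR9agonist_LW, few counts that gave 6.48 and 4.97 CPM. Lgr5 was higher in TLR9agonist_LW in endothelial cells, with 1 and 10 UMIs and a log2 ratio of 3.75 (0.93 to 9.19). The same held for macrophage and dendritic cells (10 and 21 UMIs, 1.60, 0.45 to 2.85) and T cells (5 and 43 UMIs, 3.00, 1.66 to 4.69). The part of free RNA or doublets in these ratios was not tested. Within keratinocytes, cells with follicle markers such as Krt15, Sox9 and Lhx2 had 2.97 CPM of Lgr5 (10 UMIs in 6 of 166 cells of WT_LW) against 7.74 CPM (19 UMIs in 10 of 144 cells of TLR9agonist_LW), with a log2 ratio of 1.38 (0.21 to 2.65) that rests on these few cells.

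Lgr4, the broadly used receptor of the family, was lower in TLR9agonist_LW in fibroblasts, keratinocytes and pericytes and not in Schwann cells. In fibroblasts 303 UMIs of WT_LW gave a level of 19.97 CPM and 288 UMIs of TLR9agonist_LW gave 9.23 CPM, with a log2 ratio of -1.11 (-1.35 to -0.88). Relative to the median gene this ratio was -0.84, which is under 2-fold. Keratinocytes had 16.9 and 6.07 CPM with 163 UMIs in each library, a log2 ratio of -1.47 (-1.80 to -1.15). Pericytes, the mural cells of small vessels, had 30.2 and 16.4 CPM, with a ratio of -0.88 (-1.41 to -0.36). Schwann cells, the glia of skin nerves, held the highest Lgr4 level of all classes, 47.5 CPM (41.8 to 53.7) and 56.2 CPM (48.1 to 65.2). Their log2 ratio of 0.24 had an interval of -0.04 to 0.53 that spans 0. A UMI of Lgr4 was found in 29.1% and 32.9% of these Schwann cells. In WT_LW the order of Lgr4 levels ran from Schwann cells through pericytes to fibroblasts and keratinocytes, and only the fibroblast and keratinocyte intervals overlapped among these neighbours.

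Within fibroblasts Lgr4 was higher in deep than in upper cells in both libraries, the opposite of Rspo4. Deep cells had 26.1 and 13.4 CPM in the 2 libraries, and upper cells had 12.5 and 6.34 CPM. The log2 ratio between the libraries was -0.96 in deep and -0.98 in upper cells. Within keratinocytes Lgr4 was concentrated in cells with follicle markers, at 37.4 and 18.7 CPM, against 12.1 and 7.45 CPM in basal and 1.84 and 2.56 CPM in suprabasal cells. Follicle-marked cells were 31.9% of keratinocytes in WT_LW but 12.3% in TLR9agonist_LW. The ratio within them was -0.995 (-1.52 to -0.50), within basal cells -0.70 (-1.32 to -0.04) and within suprabasal cells 0.48 (-0.71 to 1.90), each smaller in size than the -1.47 of the whole class.

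Lgr6, known from stem cells of the upper follicle and epidermis, was found mainly in keratinocytes and was lower there in TLR9agonist_LW. The 67 Lgr6 UMIs of WT_LW keratinocytes gave 6.93 CPM and the 51 UMIs of TLR9agonist_LW gave 1.90 CPM, with a log2 ratio of -1.87 (-2.42 to -1.32), and -1.42 relative to the median gene of keratinocytes, which stood at -0.45. Basal cells had 8.06 and 3.05 CPM and follicle-marked cells 13.6 and 6.93 CPM. The ratios within these subsets were -1.40 (-2.24 to -0.53) and -0.98 (-1.87 to -0.15). Suprabasal cells held 1 Lgr6 UMI in WT_LW and 0 in TLR9agonist_LW, where the floor of 3 counts is 0.226 CPM and the exact upper limit 0.278 CPM. Schwann cells held 20 and 3 Lgr6 UMIs, with a log2 ratio of -1.93 whose interval ran from -4.32 to -0.17.

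Of the 9 members, 6 had at least 50 UMIs in fibroblasts, and 2 of these (Lgr5 and Rspo4) were at least 2-fold higher and 1 (Lgr4) at least 2-fold lower in TLR9agonist_LW. Over all 12525 fibroblast genes with at least 50 UMIs, 3.63% were at least 2-fold higher and 6.94% at least 2-fold lower. In keratinocytes 5 members were counted, and 2 of them (Lgr4 and Lgr6) were at least 2-fold lower and 0 higher, while 20.5% of 10977 keratinocyte genes were lower and 2.5% higher. Since the family was chosen with these ratios known, nothing further is read from these counts.

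**Figure D3:**
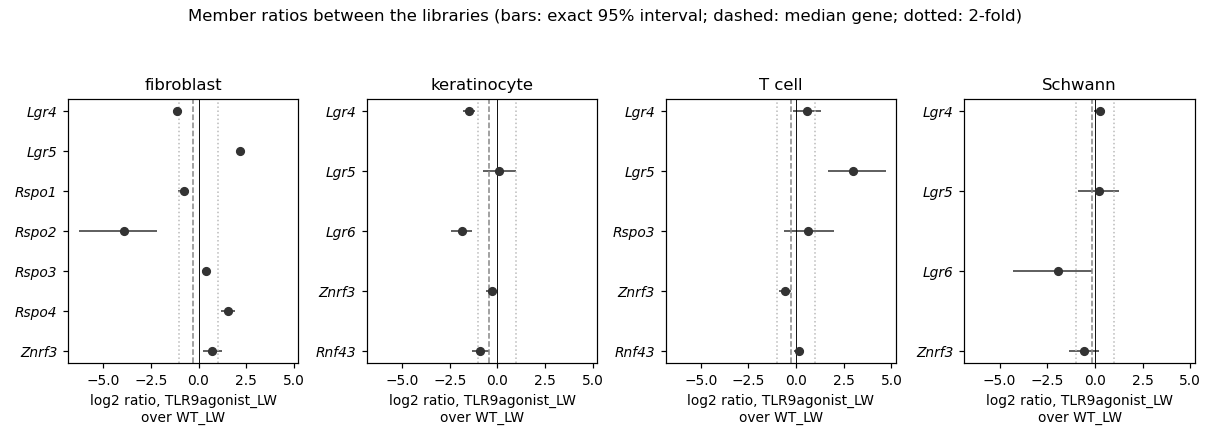
The log2 ratio of TLR9agonist_LW over WT_LW for members with at least 20 UMIs in fibroblasts, keratinocytes, T cells and Schwann cells, with exact 95% intervals, the median gene of the class (dashed) and the 2-fold limits (dotted). Lgr5 and Rspo4 lie above the upper limit in fibroblasts, Lgr4 and Lgr6 below the lower limit in keratinocytes, the Lgr5 point of T cells rests on 43 against 5 UMIs, and the Rspo2 point rests mainly on 1 cell.

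The R-spondin genes differed from each other within fibroblasts. Rspo3 had a UMI in 141 fibroblasts (13.0%) of WT_LW and 433 (17.3%) of TLR9agonist_LW. Its level was 20.4 CPM (309 UMIs) and 26.8 CPM (835 UMIs), a log2 ratio of 0.39 (0.20 to 0.59). Upper fibroblasts had 27.1 and 33.1 CPM of Rspo3 and deep fibroblasts 16.01 and 16.5 CPM. In both libraries the upper level lay above the deep one with no overlap of intervals. In WT_LW, however, 1 upper cell held 32 of the 184 upper UMIs, and the intervals without this cell were not computed. Lymphatic endothelial cells, identified by Prox1, Mmrn1 and Ccl21a, had the highest Rspo3 level, 84.1 CPM in WT_LW (37 UMIs in 16 of 69 cells) and 163 CPM in TLR9agonist_LW (92 UMIs in 22 of 57 cells). The log2 ratio of 0.95 (0.39 to 1.55) was 0.33 when the 5% of cells with the most UMIs were left out. Blood vessel endothelial cells, by contrast, held only 3 and 1 Rspo3 UMIs in 581 and 346 cells.

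Rspo4 was found in fibroblasts, and mainly in upper ones. The level was 4.81 CPM in WT_LW (73 UMIs in 55 cells) against 14.2 CPM in TLR9agonist_LW (442 UMIs in 324 cells), with a log2 ratio of 1.56 (1.20 to 1.94). No single cell carried this difference, since the highest cell had 3 UMIs in WT_LW and 5 in TLR9agonist_LW. Upper fibroblasts had 9.43 and 20.8 CPM and deep fibroblasts 1.18 and 3.18 CPM, with log2 ratios of 1.14 (0.76 to 1.55) and 1.43 (0.35 to 2.67). After thinning to 5000 UMIs, 3.52% of fibroblasts of WT_LW and 7.54% of TLR9agonist_LW held Rspo4, and T cells held 0 of 1108 and 2 of 1383.

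Rspo1 was at a lower level in TLR9agonist_LW. All fibroblasts together had 11.9 CPM in WT_LW (181 UMIs in 87 cells) against 6.99 CPM in TLR9agonist_LW (218 UMIs in 139 cells), with a log2 ratio of -0.77 (-1.06 to -0.48), which is under 2-fold. Deep fibroblasts had 15.5 CPM (118 UMIs) and 2.65 CPM (30 UMIs), a log2 ratio of -2.55 (-3.18 to -1.96). Upper fibroblasts had 9.13 CPM (62 UMIs) and 9.69 CPM (185 UMIs), a log2 ratio of 0.08 (-0.34 to 0.52). In WT_LW the deep level was the higher one, whereas in TLR9agonist_LW the upper level was. Because the markers of the split differed between the libraries, these values do not place the difference of Rspo1 in one kind of fibroblast.

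**Figure D4:**
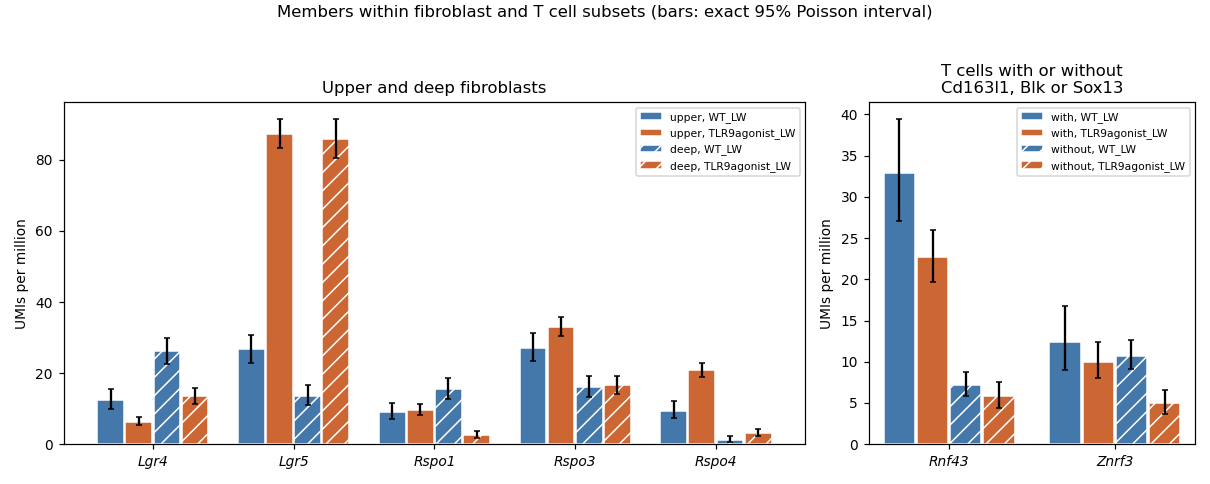
Left, levels (CPM) of 5 members in upper and deep (hatched) fibroblasts of WT_LW (blue) and TLR9agonist_LW (orange). Right, Rnf43 and Znrf3 in T cells with and without (hatched) a UMI of Cd163l1, Blk or Sox13, with exact Poisson 95% intervals on all bars. Rspo1 of deep fibroblasts reads 15.5 against 2.65, and Rnf43 is higher in T cells with these genes in both libraries.

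Rspo2, an R-spondin known from the dermal papilla, was found in few cells. WT_LW fibroblasts held 22 UMIs in 6 of 1084 cells and TLR9agonist_LW fibroblasts 3 UMIs in 3 of 2496 cells. A single fibroblast of WT_LW with 29487 UMIs in all held 16 of the 22. The same cell held 166 of the 174 fibroblast UMIs of Wif1, a secreted Wnt inhibitor, 31 of 45 of Alpl, 16 of 49 of Hhip, 11 of 26 of Lef1, 38 of 251 of Ptch1, 32 of 309 of Rspo3 and 12 of 181 of Rspo1, and it held 0 of Lgr5. Alpl, Lef1, Hhip and Ptch1 are on the list of dermal papilla and condensate genes, as is Enpp2, of which the cell held 86 of 283 UMIs. Of the same list Sox2 and Twist2 were at 0 in this cell. Corin was at 1 UMI of only 7 in all WT_LW fibroblasts, and 1 cell was given no name. The log2 ratio of Rspo2 was -3.91 with this cell and -2.04 without it, that of Rspo3 was 0.39 and 0.55, and that of Rspo1 was -0.77 and -0.68.

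The ligase Znrf3 was measured in most classes. In keratinocytes it stood at 15.1 and 12.4 CPM, with a log2 ratio of -0.28 whose interval of -0.57 to 0.01 spans 0. Basal, suprabasal and follicle-marked keratinocytes did not differ beyond their intervals within a library, with 14.1, 15.5 and 15.4 CPM in WT_LW and 10.9, 13.8 and 11.8 CPM in TLR9agonist_LW. In fibroblasts Znrf3 was at 2.97 CPM (45 UMIs) and 4.87 CPM (152 UMIs), a log2 ratio of 0.72 (0.23 to 1.23). The ratio was 1.03 (0.26 to 1.90) in upper and 0.64 (-0.11 to 1.43) in deep cells, and for all fibroblasts it was 0.19 after thinning to 5000 UMIs and 0.10 by the collagen minimum alone. In T cells it was at 11.1 and 7.40 CPM (189 and 136 UMIs), with a log2 ratio of -0.58 (-0.91 to -0.26).

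The ligase Rnf43 was highest in T cells, at 12.4 and 13.9 CPM (212 and 255 UMIs), with a log2 ratio of 0.16 (-0.11 to 0.43). Keratinocytes came next, with 8.07 and 4.36 CPM and a log2 ratio of -0.89 (-1.31 to -0.46), and fibroblasts held 5 and 11 UMIs. Within keratinocytes the Rnf43 ratio was -1.15 (-1.95 to -0.33) in suprabasal cells, and in basal and follicle-marked cells it was -0.46 in each, with intervals that span 0. The T cell signal was uneven. T cells with a UMI of Cd163l1, Blk or Sox13, genes known from γδ T cells that make interleukin 17, had 32.9 CPM of Rnf43 in WT_LW (114 UMIs in 93 of 682 cells), against 7.21 CPM in the other T cells. In TLR9agonist_LW the levels were 22.7 CPM (199 UMIs in 164 of 1772 cells) and 5.83 CPM. The log2 ratio of cells with these genes over cells without was 2.19 (1.79 to 2.59) in WT_LW and 1.96 (1.52 to 2.41) in TLR9agonist_LW, at median depths of 4329.5 and 4358 UMIs in WT_LW and 4537.5 and 4760 UMIs in TLR9agonist_LW. This split was chosen after the values were seen.

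T cells with these genes were 21.1% of their class in WT_LW and 49.97% in TLR9agonist_LW, and they held 53.8% and 78.0% of the Rnf43 UMIs of the class. Within them Rnf43 was lower in TLR9agonist_LW, with a log2 ratio of -0.54 (-0.88 to -0.19), and among the other T cells the ratio was -0.31 (-0.81 to 0.18). The ratio of the whole class thus had the other sign from both of its parts. T cells with Foxp3 had 5.09 and 4.69 CPM of Rnf43, those with Cd8a or Cd8b1 5.22 and 5.20 CPM, and those with Cd4 and no Foxp3 7.97 and 6.41 CPM. Znrf3, for comparison, was at 12.4 and 10.0 CPM in the T cells with Cd163l1, Blk or Sox13 and at 10.7 and 4.997 CPM in those without.

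Fibroblasts that held Lgr5 were then compared with those that did not, within each library. A minimum of 100 fibroblast UMIs per library left 9103 genes, of which 4 (0.0439%) were at least 2-fold higher in the Lgr5-holding cells of both libraries and 74 (0.813%) at least 2-fold lower. These genes were ordered by the smaller of their ratios, and since Lgr5 chose the cells no test was made. Lgr5-holding cells were deeper, with a median of 18577 UMIs against 11650 in WT_LW and 15411.5 against 10331.5 in TLR9agonist_LW, and they held more collagen (medians of 969 against 428 and 891 against 531 UMIs). The summed markers of each of the other 9 classes were lower in the Lgr5-holding fibroblasts of both libraries. Fibroblasts had to stay under a fixed number of UMIs of these markers, which limits their CPM more in deeper cells. The lower values are thus partly set by the gate and do not compare the purity of the cells. Keratinocyte markers were at 272 against 416 CPM in WT_LW and 724 against 909 CPM in TLR9agonist_LW, and macrophage and dendritic markers at 239 against 368 and 168 against 197 CPM.

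The genes highest with Lgr5 encode a secreted opioid precursor and matrix proteins. Penk, the proenkephalin gene, was at 175 CPM with Lgr5 and 32.7 CPM without in WT_LW, and at 284 and 77.2 CPM in TLR9agonist_LW, log2 ratios of 2.42 and 1.88. Omd, which encodes the small matrix proteoglycan osteomodulin, was at 147 and 33.9 CPM in WT_LW and 238 and 81.2 CPM in TLR9agonist_LW, log2 ratios of 2.12 and 1.55. Col8a1, a chain of the network-forming type VIII collagen, had log2 ratios of 1.37 and 1.29, and the other gene past 2-fold was a model without a gene name. After thinning to 5000 UMIs the ratios were 1.53 and 1.87 for Penk, 1.81 and 1.24 for Omd, and 0.64 and 1.13 for Col8a1, which was then under 2-fold in WT_LW. Next in order, with a smaller ratio between 0.73 and 0.94, came the iron exporter gene Slc40a1, Tspan18, the P-cadherin gene Cdh3, Hsd11b1, which encodes the enzyme that makes active glucocorticoid, the water channel gene Aqp5, Rerg, Gas2, the endothelin gene Edn1, Ctla2a, the matrix proteoglycan gene Ogn, the calcium-dependent kinase gene Camk4 and the matrix gene Smoc2. After thinning, these genes kept a positive ratio in both libraries except Edn1, which was at -0.18 in WT_LW. The smallest of the others were Camk4 with 0.35 in WT_LW and 0.26 in TLR9agonist_LW, Aqp5 with 0.33 in WT_LW and Hsd11b1 with 0.33 in TLR9agonist_LW.

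Among the genes lowest with Lgr5, Tmem100 was at 8.65 CPM with Lgr5 and 47.3 CPM without in WT_LW and at 1.22 and 6.45 CPM in TLR9agonist_LW. Its log2 ratios were -2.45 and -2.40. Olfml2a followed with -2.51 and -2.26, Cspg4, the gene of the proteoglycan NG2, with -2.58 and -2.18, Itgb8 with -2.11 and -2.77 and the transcription factor gene Ebf2 with -2.04 and -2.15. The mitosis genes Ccnb1, Cdca3 and Cdc20 had ratios of -2.32 and -2.05, -1.97 and -2.11, and -1.91 and -1.92, and Cadm4 closed the group with -2.33 and -1.90. In WT_LW these ratios rest on few UMIs in the Lgr5-holding cells, 4 for Ccnb1, 8 for Cdca3 and 4 for Cdc20, and after thinning to 5000 UMIs they were -0.40 for Ccnb1 and -0.50 for Cdca3, with no value for Cdc20. In TLR9agonist_LW the thinned ratios of these genes were -2.34, -1.496 and -3.13. For the other genes of this paragraph thinning gave no value in WT_LW.

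**Figure D5:**
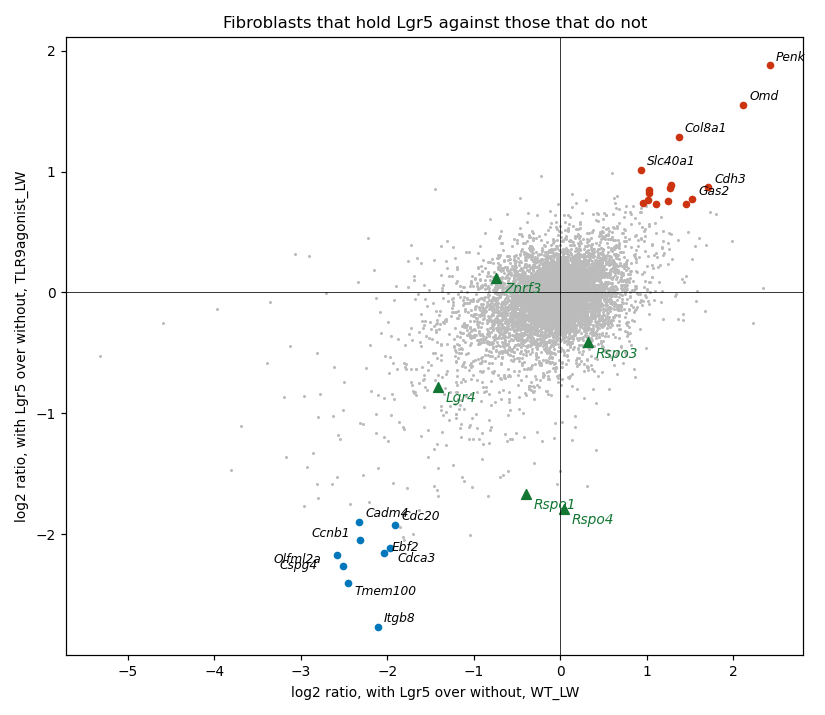
For genes with at least 100 fibroblast UMIs in each library (grey), the log2 ratio of fibroblasts with Lgr5 over those without in WT_LW (horizontal) and TLR9agonist_LW (vertical), with the 15 named genes highest in both (red, some labelled), 9 of the 10 lowest (blue) and 5 members (green triangles). The members are shown without the UMI minimum, and Rspo4 and Znrf3 had only 73 and 45 fibroblast UMIs in WT_LW. Penk and Omd stand at the upper right, and Rspo4 and Rspo1 lie low on the vertical axis. On the horizontal axis their intervals span 0, from -1.23 to 1.11 for Rspo4 and from -1.27 to 0.36 for Rspo1.

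Lgr4 was lower in the fibroblasts with Lgr5 in both libraries, at 8.03 against 21.4 CPM in WT_LW and 6.43 against 11.1 CPM in TLR9agonist_LW. Rspo4 was at 4.94 against 4.79 CPM in WT_LW and at 5.69 against 19.7 CPM in TLR9agonist_LW, so the higher Rspo4 level of that library lay mostly in fibroblasts without Lgr5. Rspo1 was at 9.27 against 12.2 CPM in WT_LW and 3.01 against 9.57 CPM in TLR9agonist_LW. Rspo3 was at 24.7 against 19.8 and 22.3 against 29.7 CPM, and Znrf3 at 1.85 against 3.10 and 5.12 against 4.71 CPM. By cells, Rspo4 was found in 55 of the 782 Lgr5-holding fibroblasts of TLR9agonist_LW (7.03%), against 269 of the 1714 others (15.7%). Rspo3 was found in 22 of 89 cells with Lgr5 in WT_LW (24.7%, 16.2 to 35.0%) against 11.96% of those without (10.0 to 14.1%), and in TLR9agonist_LW in 18.8% (16.1 to 21.7%) against 16.7% (14.9 to 18.5%). Cells with Lgr5 were the deeper ones, and these shares were not thinned.

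By the number of Lgr5 UMIs in a cell, a split made after the values were seen, the levels of TLR9agonist_LW fibroblasts were as follows. Rspo4 stood at 19.7 CPM at 0 Lgr5 UMIs, 9.78 at 1, 5.26 at 2 to 4 and 1.49 CPM (5 UMIs in 187 cells) at 5 or more. Rspo1 was at 9.57, 4.26, 3.64 and 0.595 CPM over the same ranges, while Rspo3 was at 29.7, 18.3, 22.6 and 26.5 CPM with no such order. Penk ran the other way, from 77.2 over 189 and 252 to 444 CPM, and Omd from 81.2 over 194 and 221 to 316 CPM. In WT_LW no such order was seen for Rspo1, at 12.2, 14.5, 4.45 and 9.25 CPM, and Penk was at 32.7, 22.6, 224 and 367 CPM. The 18 WT_LW fibroblasts with 5 or more Lgr5 UMIs held 119 Penk UMIs (367 CPM) and 0 Rspo4 UMIs, where a count of 0 allows up to 9.25 CPM, above the 4.79 CPM of cells without Lgr5, so a grading of Rspo4 was not detectable at this depth.

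The rest of the Wnt pathway was described by lists of 68 genes. In fibroblasts 49 of these had at least 50 UMIs, of which 1 was at least 2-fold higher and 7 lower in TLR9agonist_LW (3.63% and 6.94% of all fibroblast genes). The median log2 ratio was -0.13 against -0.28 over all genes with at least 50 UMIs. The higher gene was the Wnt target Tnfrsf19, at 14.9 and 32.2 CPM (log2 ratio 1.11, and 0.85 after thinning). Other target genes of the pathway were higher by less than 2-fold, with ratios of 0.81 for Nkd1, 0.76 for Myc and 0.63 for Axin2, the usual readout of Wnt signalling, while Ccnd1 stood at 0.02 and Cd44 at -1.29. The 9 target genes counted had a median of 0.41. Among 9 ligand genes 4 were lower, Wnt2 with -2.42, Wnt16 with -1.51, Wnt9a with -1.10 and Wnt6 with -1.04 (median -0.89), and Wnt5a was at 75.4 and 136 CPM with a ratio of 0.85. Of 13 receptors only Fzd4 passed the fold, with -1.003 (median 0.03). Of 6 secreted inhibitors only Wif1 did (median -0.08), with -5.90, which was -1.46 without the cell that held 166 of its UMIs, and of 12 intracellular genes 0 did (median -0.42).

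In keratinocytes 40 list genes were counted, 2 higher and 12 lower (2.5% and 20.5% of all keratinocyte genes), with a median of -0.83 against -0.53 over all genes. The share of follicle-marked cells in this class, 31.9% against 12.3%, differed as well, and its part in these ratios was not tested. Among 6 target genes Axin2 stood at 11.4 and 4.47 CPM with a ratio of -1.35, Tnfrsf19 at -1.30 and Ccnd1 at -1.28 (median -1.10). Among 11 receptor genes Fzd3 stood at -1.91, Fzd10 at -1.66, Fzd2 at -1.44, Fzd7 at -1.41 and Fzd6 at -1.11, and Fzd5 was higher with 1.04 (median -0.998). Of 8 ligands Wnt4 and Wnt6 were lower with -1.42 and -1.41 (median -0.78), of 12 intracellular genes Tcf7l1 with -1.47 (median -0.60), and of 3 inhibitors Sfrp1 with -1.91 (median -0.79). Sfrp2 had 1.15, but -0.21 when each cell was given equal weight. Axin2 and Tnfrsf19 were thus higher in fibroblasts and lower in keratinocytes of TLR9agonist_LW. The target gene Cd44 went the other way, with -1.29 in fibroblasts and 0.42 (0.37 to 0.48) in keratinocytes. These differences were not tested.

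In the comparison of Lgr5-holding fibroblasts with the others, 42 genes of the Wnt lists were counted, and 0 passed the fold upward and 1 downward. Over all 9103 genes the shares were 0.0439% and 0.813%, so nothing is read from this count. The 1 gene was the secreted inhibitor gene Sfrp4, with -2.97 in WT_LW and -1.77 in TLR9agonist_LW. The other lists were counted in fibroblasts between the libraries, where 3.63% of all genes were at least 2-fold higher and 6.94% lower. Of 16 dermal papilla and condensate genes Pappa2 was higher (1.30) and Alpl, Hhip, Gli1 and Fgf10 were lower (median -0.28). The count includes Alpl only through the cell that held 31 of its 45 WT_LW UMIs, and in fibroblasts without Rspo2, which leaves that cell out, Alpl was at 0.931 against 1.41 CPM, lower in WT_LW. Hhip was at 2.196 and 0.160 CPM in those cells. The 8 upper fibroblast genes had a median of 0.42 and none past the fold, and of 11 deep fibroblast genes 5 were lower, namely Clec3b, Angptl1, Dlk1, Mest and Pi16 (median -0.73). Of 6 myofibroblast genes Acta2 was lower with -1.36 (median -0.13). Of 10 genes that dissociation of tissue is known to induce, 3 were higher, Junb with 1.16, Hspa1a with 1.42 and Hspa1b with 1.91 (median 0.31). The part of handling stress in the member ratios was not tested. Between fibroblasts with and without Lgr5 none of these 10 genes passed the fold in both libraries. Few genes of any kind did (0.0439% upward and 0.813% downward), so nothing is read from this about stress in these cells.

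Genes with the most similar pattern were sought by Pearson correlation of log2(CPM + 1) over the 20 profiles of class and library, which share libraries and depth. Lgr5 was nearest to Clec11a (r = 0.94), Omd (0.94) and Col8a2 (0.92), and Rspo4 to Dpep1 (0.95), Svep1 (0.94) and Omd (0.92). Rspo1 was nearest to Zim1 (0.97), Igdcc4 (0.97) and Galnt5 (0.95). Rspo3 was nearest to Brinp1 (0.95), Fam65c (0.95) and Sema3a (0.94). Lgr4 was nearest to Dhrs4 (0.94), Dlg3 (0.94) and Evc2 (0.93), Znrf3 to Serbp1 (0.92), Banf1 (0.90) and Rrs1 (0.87), and Rnf43 to BC021614 (0.89), the T cell factor gene Gata3 (0.88) and Lamb3 (0.86). Lgr6 and Rspo2 had under 200 UMIs and were not matched.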

How the data were processed

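Droplet-based single-cell RNA-seq of 2 libraries was used. The values are UMI counts without normalization, which the authors deposited as matrices limited to the barcodes that Cell Ranger 4.0.0 (named in the file header) called as cells. The submitters' processing notes also list fastp, Seurat and the build mm9 with no role or version, and the positions given here were looked up on GRCm38 (GENCODE) through each gene's Ensembl number. The study's text gives 6 mice per group in one place and 5 samples in another, and PBS or a control oligonucleotide as the control; the labels say PBS. The labels describe spraying and the text other routes of application.

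The members and gene lists were chosen with earlier results of these data known. The filter kept cells of 500 UMIs and 300 genes or more whose mitochondrial share did not exceed 15%. Marker sums gated 10 classes, at minimums of 20 (fibroblast), 40 (keratinocyte), 4 (T cell), 25 (macrophage and dendritic), 4 (neutrophil), 10 (mast), 8 (endothelial), 4 (lymphatic), 12 (pericyte) and 8 (Schwann) UMIs. Cells of 2 gates, and cells of other gates with at least 50 collagen UMIs (200 for pericytes and Schwann cells), were set aside in place of a doublet caller, so some doublets remain. Follicle-marked keratinocytes had at least 1 follicle marker UMI per 1000. UMIs were summed per class and divided by the class total. Intervals are exact: Poisson for levels, Clopper-Pearson for shares and conditional on the total for ratios. Where a level of 0 was read against other levels, a floor of 3 counts is given beside the exact upper limit. Ratios past 2-fold (log2 of 1) were counted for genes with at least 50 UMIs. With 1 library per group no p-value or standard error was computed.

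All 9 members were named. For the Lgr5-holding profile the 15 highest and 10 lowest genes by the smaller of both libraries' ratios were named, among genes with at least 100 UMIs in each library; for each member with at least 200 UMIs, the 3 genes of highest correlation; and the Wnt list genes past 2-fold. One of the 10 lowest genes is not reported here. The lists were Wnt ligands, receptors, secreted inhibitors, intracellular genes and targets, dermal papilla and condensate, upper and deep fibroblast, myofibroblast and dissociation stress genes; list genes under 2-fold and the subsets of T cells and the Lgr5 UMI ranges were chosen after their values were seen. The functions were tested on simulated counts. Calculations ran in Python (3.11.15) with scipy (1.17.1), numpy (2.4.6) and pandas (2.3.3), and plots in matplotlib (3.10.9).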

Additional observations from a re-analysis of the deposited data

Results flagged for a closer look

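Znrf3 had ratios of opposite sign in 2 classes. Its log2 ratio of TLR9agonist_LW over WT_LW was 0.72 (0.23 to 1.23) in fibroblasts and -0.58 (-0.91 to -0.26) in T cells, and the difference between the classes was not tested, since each class is 1 sum per library. The fibroblast ratio was 0.19 (-0.73 to 1.21) after thinning to 5000 UMIs and 0.10 (-0.15 to 0.35) by the collagen minimum alone, and both intervals span 0.

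Cells that entered no class also held members. Among the 1287 cells of TLR9agonist_LW set aside for passing more than 1 gate or for high collagen, Lgr5 was at 27.6 CPM (754 UMIs in 235 cells), against 4.18 CPM (73 UMIs) in the 1013 such cells of WT_LW. Rspo3 was at 7.93 CPM there against 3.66 CPM, and Rspo4 at 4.24 CPM (116 UMIs) against 0.686 CPM (12 UMIs). These cells had a median of 78 collagen UMIs in TLR9agonist_LW and 24 in WT_LW, and at median depths of 17784 and 14152 UMIs the part of doublets with fibroblasts in these values was not tested.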

How the results depend on the processing

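No paired analysis was possible because each group has 1 library, and for the same reason no library could be left out. For 62 single-gene results 370 values were computed under the alternatives. Of these 367 kept their sign and 276 lay within the interval of the reported value. One ratio past 2-fold changed sign, that of Sfrp2 in keratinocytes, -0.21 with equal weight per cell. The log2 ratio of Lgr5 in fibroblasts was 1.95 after thinning to 5000 UMIs and 2.46 with scaling to the median gene. The share of fibroblasts with Lgr5 in WT_LW was 5.56% by the collagen minimum alone, 5.91% after thinning and 4.89% when 2 or more UMIs were asked for. In TLR9agonist_LW it was 34.0% with the stricter cell filter, 24.0% by the collagen minimum alone, 33.5% with a collagen minimum of 50, 22.0% after thinning and 20.2% with 2 or more UMIs. The profile counts of 4 higher and 74 lower genes became 44 and 438 by the collagen minimum alone and 2 and 24 after thinning; the cause was not tested. In the Wnt lists the fibroblast counts of 1 higher and 7 lower became 0 higher after thinning, 12 lower by the collagen minimum alone, and 2 higher and 13 lower with genes of at least 10 UMIs. The keratinocyte counts of 2 higher and 12 lower became 1 higher with the stricter filter, 1 higher without the top 5% of cells, and 20 lower with genes of at least 10 UMIs, where more genes were counted. The ratio without the fibroblast that held most Rspo2 was an alternative chosen after seeing the data.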
